A study of Homo sapiens with 2 samples.

Results

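The SLC25 family holds the mitochondrial carriers, and its members were taken as the protein-coding genes whose symbol starts with SLC25A and a digit. There were 48 such genes, of which SLC25A20, SLC25A28 and SLC25A37 were left out of the set, so 45 of the 27685 listed gene IDs were members. They were described in RNA of H1299, an established human cell line of non-small cell lung cancer kept in medium with serum and antibiotics. One group was untreated (control) and the other received 5 mM metformin, a biguanide known to inhibit complex I of the respiratory chain. Each group was 1 library, how long treatment lasted is not known here, and a single line stands for the disease. There were no replicates, so no difference below has a replicate check and no p-value is given. Levels are in TPM, which is scaled per transcript length and to the total of a library, so that levels of different genes can be compared. In these bulk samples, a change in the number of cells in a given state and a change in RNA per cell cannot be told apart.

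Mitochondrial carriers are small proteins of the inner membrane made of a repeated unit of a pair of helices. Each exchanges or imports a set of metabolites between the cytosol and the matrix: ADP against ATP, phosphate, citrate, malate, aspartate, glutamate, glycine, coenzyme A, NAD+ and others. They are encoded in the nucleus, are made in the cytosol and reach the inner membrane through the TOM and TIM22 import machinery.

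The libraries held 5.80 Gb (control) and 6.40 Gb (metformin) of aligned bases, an estimated 28.7 M and 31.7 M read pairs. Genes that reached 1 TPM in either library, 14078 in all, are called measured. VIM, the mesenchymal intermediate filament, was abundant at 4378 and 4962 TPM, and the keratin gene KRT8 had 269 and 521 TPM, KRT18 553 and 954. The other mesenchymal markers listed were far lower: CDH2 had 22.9 and 19.1 TPM, ZEB1 21.7 and 20.1, and FN1 18.2 and 23.8. The lung lineage markers NKX2-1, SFTPB, SFTPC, NAPSA and SCGB1A1 were all below 0.5 TPM in both libraries, as were EPCAM, CDH1 and KRT19. The label of a lung line thus rests on its name and not on these markers.

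Of the 45 carriers, 36 were measured, and the same 36 reached 1 TPM in each library, so none entered through 1 library alone. SLC25A2, SLC25A18, SLC25A31 and SLC25A47 were listed at 0 in both libraries. These encode an ornithine carrier, a glutamate carrier, the ADP/ATP translocase of testis and a carrier whose substrate is not settled. SLC25A34, SLC25A41, SLC25A48, SLC25A52 and SLC25A53 were listed between 0 and 0.813 TPM and are not compared further. The 45 genes together made up 3206 TPM in control and 3339 in metformin. SLC25A3, SLC25A5 and SLC25A6 supplied 64.8% of that sum in control and 67.1% in metformin, and the other 42 genes added up to 1127 and 1099 TPM.

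**Figure D1:**
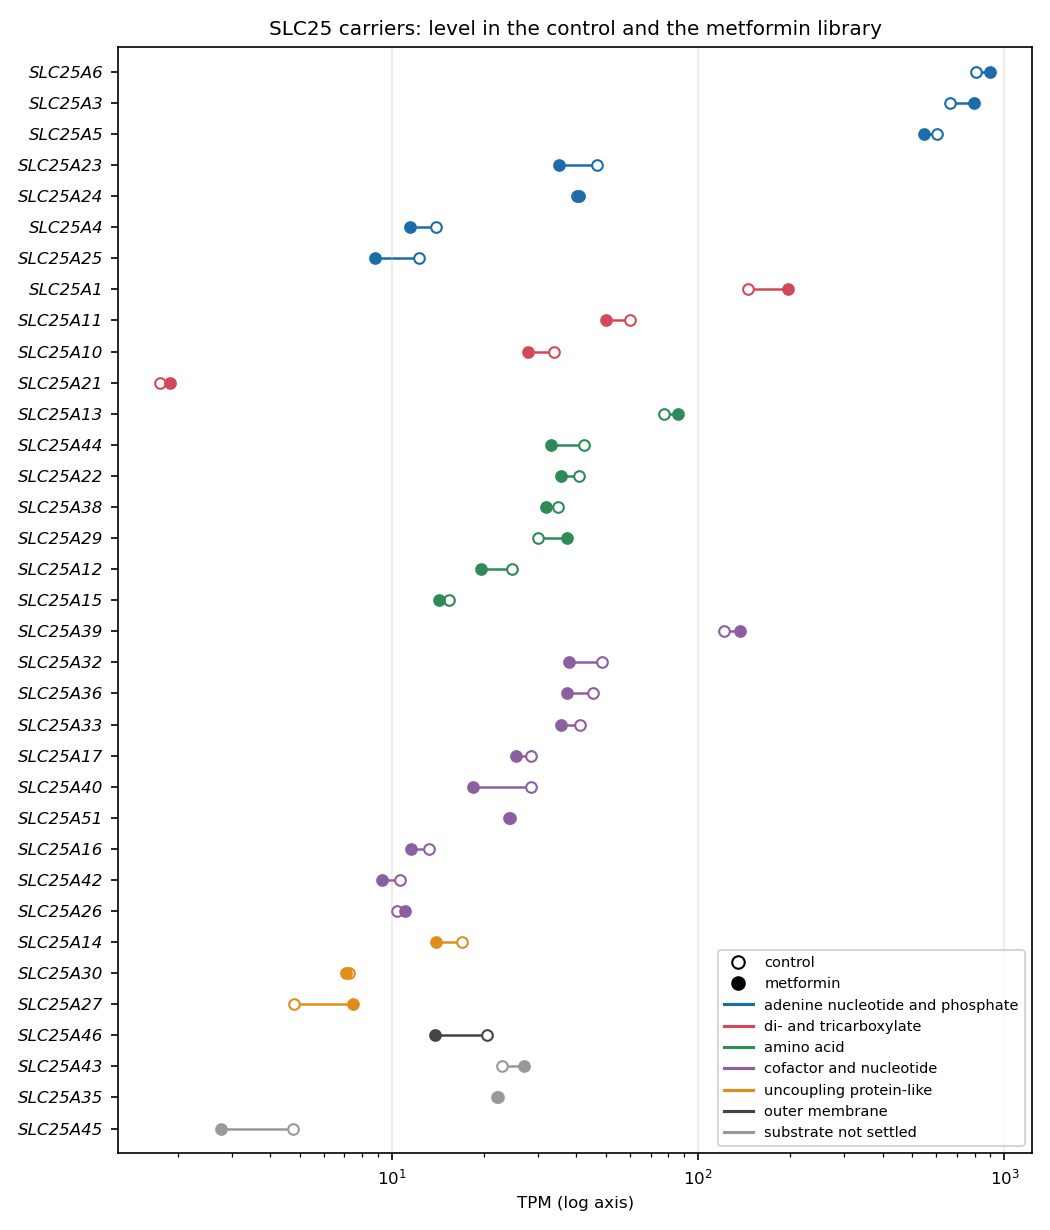
TPM (log axis) of 35 of the 36 measured SLC25 genes in control (open circles) and metformin (filled circles), coloured by substrate class, with 1 library per group. SLC25A6 (both rows summed), SLC25A3 and SLC25A5 stand at 546 TPM or more in both libraries. SLC25A1 and SLC25A39 stand between 121 and 196, and all others at 86.1 or less.

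No carrier differed by 2-fold or more between the libraries on the log2(TPM + 1) scale, on which all counts of genes past a fold are made. Among all measured genes 1.51% were higher and 1.24% lower by that much, so a set of 36 genes with none past it is close to the background. By 1.5-fold or more, 2 of the 36 were lower in metformin (5.56%, against 7.03% of all measured genes) and 0 were higher (against 5.4%). The 2 were SLC25A45 and SLC25A40. Neither passed that fold on log2(FPKM + 1), where the added 1 weighs more because their FPKM values were smaller than TPM. The scaling between the libraries also differed there: the abundant SLC25A3 had a log2 difference of 0.29, against 0.25 with TPM. The parts of the added 1 and of the scaling were not told apart. With the libraries centred on genes at 10 TPM or more 0 were lower and 1, SLC25A27, was higher. The median log2 difference, metformin minus control, was -0.17 over the carriers and -0.08 over all measured genes. Below 0 lay 23 carriers, against 59.7% of all measured genes, and above 0 lay 13, against 40.3%. The middle 50% of the carriers ran from -0.29 to 0.07, and that of all measured genes from -0.29 to 0.15.

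The ratio of the TPM values carries an exact (Clopper-Pearson) 95% interval from estimated read pairs, which covers the counting of reads only and not the variation between cultures. The interval lay below 1 for 19 carriers (52.8%), above 1 for 8 (22.2%) and included 1 for 9. Over the 13487 measured genes for which it could be computed, it lay below 1 for 38.7% and above 1 for 22.1%. The share above 1 was therefore near the background, and no test of the share below 1 was made. An interval excludes 1 more readily for a gene with more reads. At 10 TPM or more in both libraries stood 30 of the 36 carriers, but 8889 of the 14078 measured genes. The shares are thus not set side by side at like depth.

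**Figure D2:**
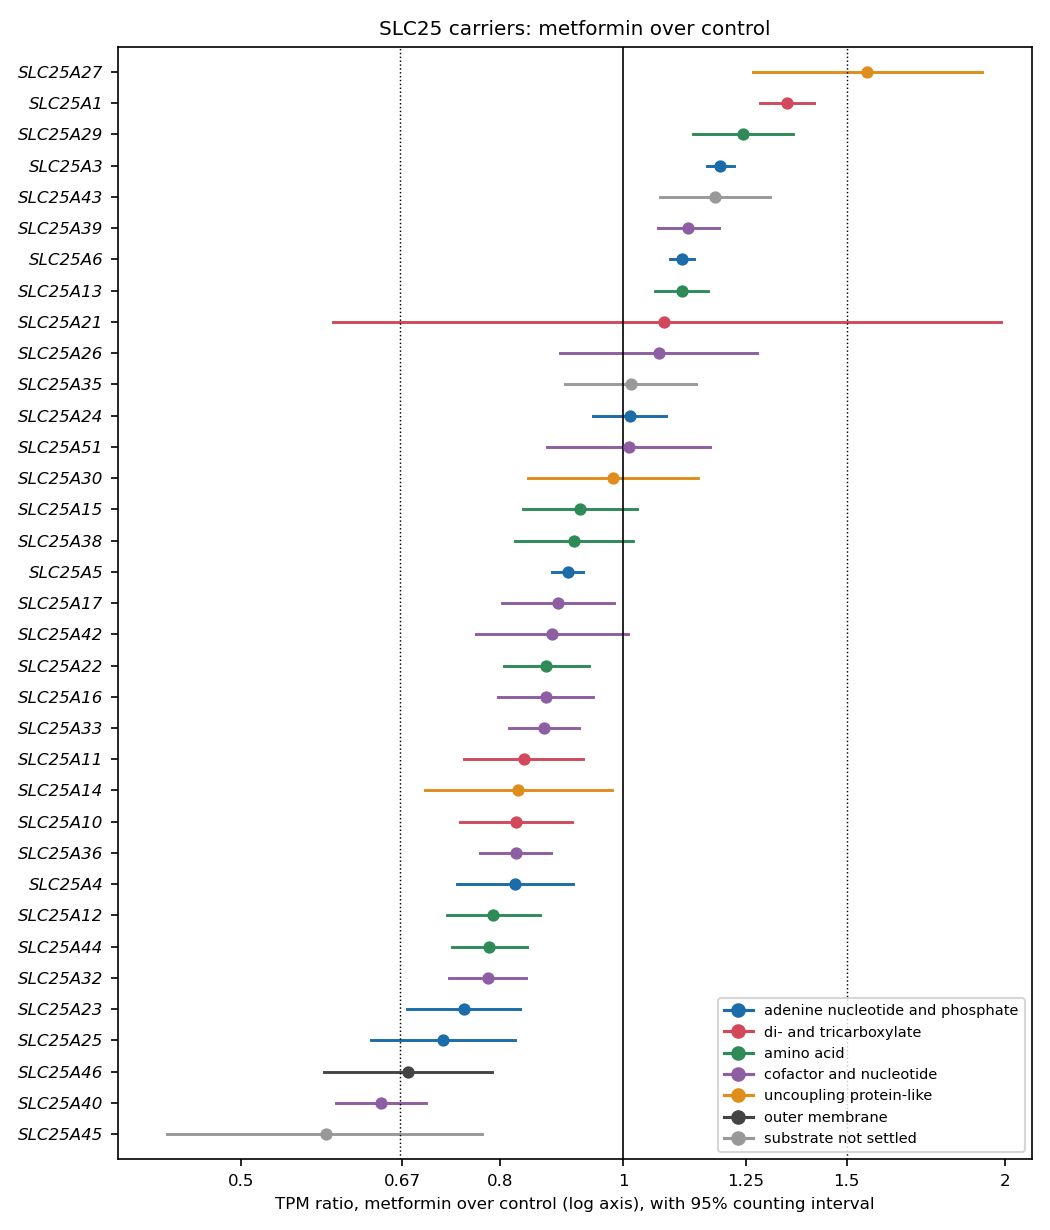
TPM ratio, metformin over control (log axis), of 35 of the 36 measured SLC25 genes, with bars for the 95% counting interval and dotted lines at 1.5-fold in either direction. SLC25A27 at 1.56 and SLC25A1 at 1.35 are the highest, SLC25A40 at 0.645 and SLC25A45 at 0.583 the lowest.

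The ADP/ATP translocases, which export ATP from the matrix against ADP, did not share a direction. SLC25A6, which encodes ANT3, had 809 TPM in control and 900 with metformin, and the ratio was 1.11 (1.09 to 1.14, as for all ratios below the 95% counting interval). SLC25A5, which encodes ANT2, the form of dividing cells, had 605 and 546 TPM, a ratio of 0.904 (0.879 to 0.930). SLC25A4, which encodes ANT1 of heart and muscle, had 14.0 and 11.5 TPM, a ratio of 0.822 (0.740 to 0.912). Among all measured genes, the log2 differences lay at percentile 75.6 for SLC25A6, 42.1 for SLC25A5 and 28.1 for SLC25A4. With its 2 rows summed, ANT3 was the most abundant carrier mRNA in both libraries, and ANT1 was a minor part of the pool. The ratio of SLC25A6 to SLC25A5 was 1.34 in control and 1.65 in metformin, while the sum over the ADP/ATP translocases was nearly level at 1428 and 1458 TPM. With a correction for transcript GC content and length, described below, the gap between SLC25A6 and SLC25A5 shrank from 0.30 to 0.15 on the log2 scale. SLC25A6 (NCBI gene 293) lies in the region shared by chromosomes X and Y, at 1505045 to 1511039 of hg19 on X. It was listed on both chromosomes, and both rows were summed. How reads that match both copies were counted is not known here. The level and rank of SLC25A6, its ratio to SLC25A5 and the sums that hold it rest on this summing. The first row alone gave a log2 difference of 0.16, against 0.15 for the sum. SLC25A5 (NCBI gene 292) lies on chromosome X at 118602363 to 118605359 and overlaps SLC25A5-AS1 on the other strand, which had 2.50 and 2.37 TPM.

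The coding sequences of these translocases are similar enough that an exchange of reads had to be looked at. They are 894 bases each without the stop codon, and 69.5% of positions are alike in SLC25A4, SLC25A5 and SLC25A6. The stretch of 60 coding bases where they are most alike, from base 76 to 135 of each coding sequence (GENCODE 44 transcripts on GRCh37, each spanning an intron), is shown because it is the hardest place to tell them apart. Capitals mark the positions that differ between them, and 52 of the 60 are alike in all.
SLC25A4: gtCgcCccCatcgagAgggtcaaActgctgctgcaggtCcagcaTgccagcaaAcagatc
SLC25A5: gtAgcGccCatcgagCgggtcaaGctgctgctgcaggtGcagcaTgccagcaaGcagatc
SLC25A6: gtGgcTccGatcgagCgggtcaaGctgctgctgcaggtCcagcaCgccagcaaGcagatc
The longest run of identical bases between SLC25A5 and SLC25A6 was 29, between SLC25A4 and SLC25A6 20 and between SLC25A4 and SLC25A5 14, all shorter than a read of 101 bases. For SLC25A4 and SLC25A6 no stretch of 101 bases of the transcript stood in a transcript of another gene, and for SLC25A5 7.04% did, all in SLC25A5-AS1. The 3 SLC25 pseudogenes that were listed, SLC25A3P1, SLC25A51P1 and SLC25A51P4, had a summed 0.0274 TPM in control and 0 in metformin. None of them is a pseudogene of an ADP/ATP translocase, so their level says nothing about reads of the translocases.

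Phosphate and ATP-Mg carriers differed in direction. SLC25A3, the carrier that supplies phosphate to ATP synthase and also copper to the matrix, had 665 TPM in control and 793 with metformin, a ratio of 1.19 (1.16 to 1.22). SLC25A3 (NCBI gene 5250) is found on hg19 chromosome 12, from 98987403 to 98995778, and was second to the summed SLC25A6 in both libraries. The carriers that exchange ATP-Mg for phosphate under the control of calcium set the adenine nucleotide content of the matrix. Of these, SLC25A23 had 46.9 and 35.1 TPM, a ratio of 0.749 (0.675 to 0.830). SLC25A25 had 12.3 and 8.85 TPM, a ratio of 0.721 (0.633 to 0.822). SLC25A24 had 40.3 and 40.8 TPM, with an interval of 0.947 to 1.08 that included 1. Thus the most abundant ATP-Mg carrier mRNA was SLC25A23 in control and SLC25A24 in metformin, and the summed level of the ATP-Mg carriers was 99.9 and 85.6 TPM. The antisense transcript SLC25A25-AS1 had 3.05 and 2.23 TPM.

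Among carriers of di- and tricarboxylates, the citrate carrier was higher and the malate carriers lower. SLC25A1, which exports citrate for the synthesis of fatty acids and sterols, had 146 TPM in control and 196 with metformin, a ratio of 1.35 (1.28 to 1.41). Its log2 difference of 0.43 lay at percentile 90.7 of all measured genes. Those of SLC25A11 and SLC25A10 lay at percentiles 28.9 and 27.1, inside the middle 50% of all measured genes. SLC25A11, which exchanges oxoglutarate for malate in the malate-aspartate shuttle, had 59.9 and 50.04 TPM, a ratio of 0.835 (0.749 to 0.930). It overlaps RNF167 on the other strand, which had 108 and 95.8 TPM. SLC25A10, which exchanges malate and succinate for phosphate, had 33.8 and 27.8 TPM, a ratio of 0.823 (0.744 to 0.911). Of the stretches of 101 bases of its transcript 60.9% also stood in a readthrough gene of GENCODE that spans the same locus and has no symbol. How reads of such shared stretches were assigned is not known here, so its value is uncertain. The ratio of SLC25A1 to SLC25A11 was 2.43 in control and 3.92 in metformin. SLC25A21, the carrier of oxoadipate and related acids, was near the limit of measurement at 1.75 and 1.88 TPM, with an interval of 0.591 to 1.99.

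The amino acid carriers had 5 of 7 measured members below 0, against 59.7% of all measured genes, and a median of -0.13 against -0.08. The aspartate/glutamate carriers, which are the calcium-regulated step of the malate-aspartate shuttle, differed in direction. SLC25A13, which encodes citrin, had 77.5 TPM in control and 86.1 with metformin, a ratio of 1.11 (1.06 to 1.17). SLC25A12, which encodes aralar, had 24.7 and 19.5 TPM, a ratio of 0.790 (0.727 to 0.859). The ratio of citrin to aralar mRNA was 3.13 in control and 4.41 in metformin, and their sum was 102 and 106 TPM. The longest identical run of their coding sequences was 29 bases, and no stretch of 101 bases of either transcript stood in another gene.

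SLC25A44, a carrier of branched-chain amino acids, had 42.3 and 33.2 TPM, the lowest ratio of the amino acid carriers at 0.784 (0.733 to 0.840). SLC25A29, a carrier of arginine, lysine and other basic amino acids, had 30.0 and 37.3 TPM, the highest at 1.24 (1.13 to 1.36). The ratio of SLC25A29 to SLC25A44 was thus 0.710 in control and 1.12 in metformin, so their order turned. The glutamate carrier SLC25A22 had 40.9 and 35.6 TPM, a ratio of 0.870 (0.805 to 0.940). SLC25A38, which imports glycine for heme synthesis, and SLC25A15, the ornithine carrier of the urea cycle, stood at 0.915 and 0.925 of control, and both intervals included 1.

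The carriers of cofactors and nucleotides had 8 of 11 measured members below 0, against 59.7% of all measured genes, with a median of -0.19 against -0.08. SLC25A39 and SLC25A40 encode related carriers, of which SLC25A39 imports glutathione. SLC25A39 had 121 TPM in control and 137 with metformin, a ratio of 1.13 (1.07 to 1.19). SLC25A40 had 28.5 and 18.4 TPM, a ratio of 0.645 (0.594 to 0.699). The ratio of SLC25A39 to SLC25A40 was 4.26 in control and 7.43 in metformin, and their sum was 150 and 155 TPM. SLC25A40 (NCBI gene 55972) is found on hg19 chromosome 7, from 87463814 to 87505692, and its row overlaps that of DBF4, a replication kinase subunit, by 149 bases on the other strand. DBF4 had 66.6 and 34.1 TPM. The sources used here do not say whether reads were counted by strand, and the part of these reads in the value of SLC25A40 was not tested.

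SLC25A32, which carries folate and FAD, had 48.6 and 38.0 TPM, a ratio of 0.782 (0.729 to 0.838). Of the stretches of 101 bases of its transcript 95.7% also stood in transcripts of other genes, 87.7% in a readthrough gene of GENCODE that spans the same locus and has no symbol. How reads of such shared stretches were assigned is not known here, so its value is uncertain. Its row overlaps that of DCAF13 on the other strand, which had 142 and 104 TPM. The pyrimidine nucleotide carriers SLC25A33 and SLC25A36 were listed at 41.3 and 45.5 TPM without and at 35.8 and 37.4 with metformin, ratios of 0.866 (0.813 to 0.924) and 0.823 (0.771 to 0.877).

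SLC25A51, the carrier that brings NAD+ into the matrix, was among the most level members, at 24.1 and 24.4 TPM, with an interval of 0.872 to 1.17. Its coding sequence shares 97.6% of bases with that of SLC25A52, with a longest identical run of 169 bases, so whole reads can be exchanged between these genes. SLC25A52 had 0.401 and 0.214 TPM, and the sum of both was 24.5 and 24.6 TPM. SLC25A26, which imports S-adenosylmethionine, had 10.4 and 11.1 TPM, with an interval of 0.892 to 1.28. Of the carriers linked to coenzyme A, SLC25A42 stood at 0.879 and SLC25A16 at 0.869 of control, with intervals of 0.766 to 1.01 and 0.797 to 0.947. SLC25A17, the carrier of peroxisomes, stood at 0.888 (0.803 to 0.983).

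The members related to uncoupling proteins stood at 16.9 TPM or less in both libraries. SLC25A27, also called UCP4 and known from brain, had 4.79 TPM in control and 7.46 with metformin, the highest ratio of the measured members at 1.56 (1.27 to 1.92). Its plain ratio passed 1.5, but its log2(TPM + 1) difference of 0.55 did not reach that fold. SLC25A14, also called UCP5, had 16.9 and 14.0 TPM, a ratio of 0.827 (0.698 to 0.979), and SLC25A30 had 7.23 and 7.09 TPM, with an interval that included 1. SLC25A27 (NCBI gene 9481) is found on hg19 chromosome 6, from 46620652 to 46645927.

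SLC25A46, an outer membrane protein that acts in mitochondrial fusion and fission, had 20.5 TPM in control and 13.9 with metformin, a ratio of 0.677 (0.582 to 0.788). SLC25A46 (NCBI gene 91137) is found on hg19 chromosome 5, from 110073837 to 110100874. On the log2(TPM + 1) scale its difference of -0.53 lay just inside 1.5-fold. Of the members whose substrate is not settled, SLC25A45 had 4.76 and 2.77 TPM, the lowest ratio of all measured members at 0.583 (0.437 to 0.774). SLC25A45 (NCBI gene 283130) is found on hg19 chromosome 11, from 65142663 to 65151172, and its value rests on an estimated 127 read pairs in control. SLC25A43 had 22.9 and 27.0 TPM, a ratio of 1.18 (1.07 to 1.31). SLC25A35 had 22.0 and 22.3 TPM and overlaps RANGRF by 1596 bases on the other strand, which had 50.02 and 36.6 TPM.

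Differences between the libraries varied with transcript GC content. Over 13516 measured genes with a known transcript the Spearman correlation was 0.32, and over the 36 carriers it was 0.17. Genes share the library preparation, so these are descriptions across genes. In transcripts with GC content under 45%, all genes had a median of -0.20 and the 12 carriers -0.18. From 45 to 55% the medians were -0.06 for all genes and -0.13 for 11 carriers. Over 55% all genes had a median of 0.04 and 13 carriers -0.20, with 5 of the 13 above 0.

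Single carriers shifted when a quadratic trend over GC content and length was removed. SLC25A40, with a GC content of 34.3%, shifted from -0.61 to -0.32, and SLC25A46, with 35.4%, from -0.53 to -0.25. SLC25A36, with 33.5%, turned from -0.27 to 0.04. Carriers with GC-rich transcripts shifted the other way: SLC25A23 went from -0.41 to -0.52, SLC25A25 from -0.43 to -0.52 and SLC25A45 from -0.61 to -0.71. SLC25A1 went from 0.43 to 0.30 and SLC25A27 from 0.55 to 0.65. Of the 36 carriers 33 kept the sign of their difference.

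**Figure D3:**
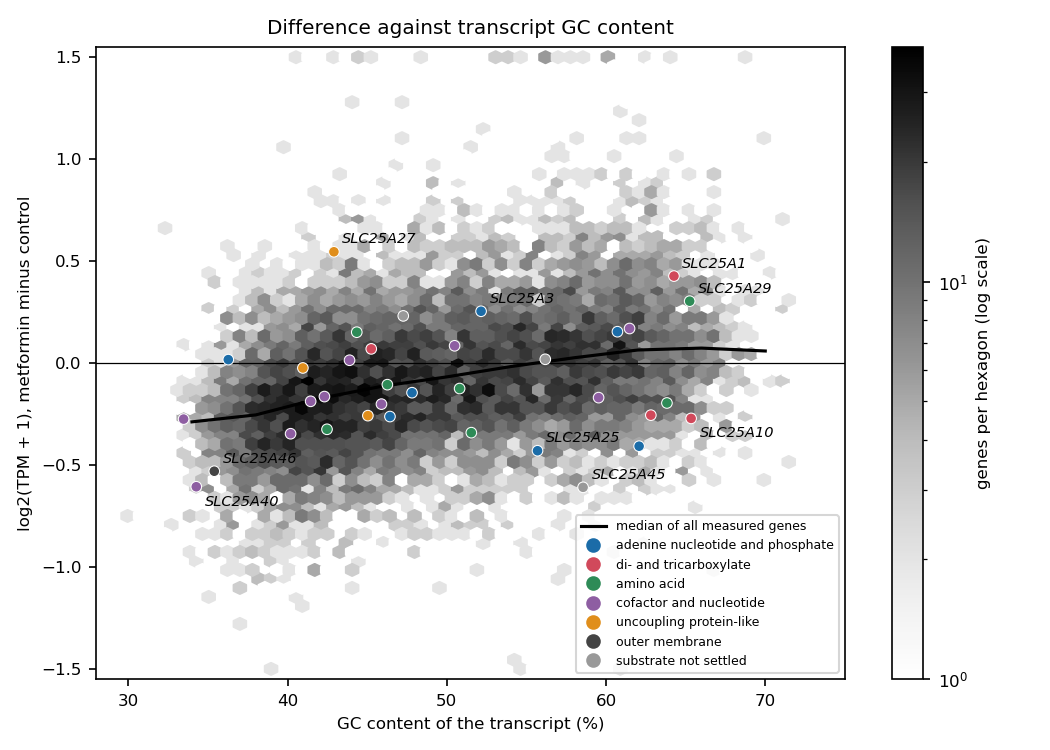
Log2(TPM + 1) difference, metformin minus control, against the GC content of the transcript in percent, with all measured genes as grey hexagons (values past 1.5 are drawn at 1.5), their median as a black line and 35 carriers as coloured points. The line rises with GC content, and SLC25A40 and SLC25A46 stand at its left end at -0.61 and -0.53.

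Promoters were compared with those of all genes in RefSeq windows from 250 bases before to 50 bases after each start (GRCh38.p14). Windows were found for 38 of the 45 members, 49 in all. Motifs were searched on both strands, and a match describes letters and no binding. The E-box CACGTG, a motif of MYC and related factors, stood in 18.4% of member windows, 7.26% of all 35116 windows and 9.56% of the 14828 windows of measured protein-coding genes. It was found in SLC25A13, SLC25A22, SLC25A26, SLC25A31, SLC25A33, SLC25A36, SLC25A38, SLC25A46 and SLC25A51, which were not alike in their differences. The core TGATGNAA of the element bound by C/EBP and ATF factors stood in 1 member window, that of SLC25A11, which is 2.04% of member windows against 3.62% of all and 1.93% of those of measured protein-coding genes. Shares below are given in that order. The CRE core TGACG stood in 34.7%, 24.6% and 32.3%. The full CRE TGACGTCA, which holds that core, stood in 6.12%, 1.85% and 2.84%, the member windows being 3, those of SLC25A25, SLC25A33 and SLC25A36. The CCAAT box CCAAT stood in 44.9%, 34.6% and 35.04%, the ETS core CCGGAAG in 20.4%, 10.3% and 17.2%, and the YY1 core AAGATGG in 4.08%, 5.84% and 7.14%. The GC box GGGCGG stood in 65.3% of member windows, 44.95% of all and 66.8% of those of measured protein-coding genes. The NRF1 element was in no member window, in 1.24% of all and in 2.02% of those of measured protein-coding genes.

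The 250 bases before the start are shown for the pair of carriers with the highest and the pair with the lowest log2 difference, so that these can be set side by side. Capitals mark the motifs named above, on either strand. The windows are chr6:46652725-46652974 on the plus strand for SLC25A27, chr22:19178737-19178986 on the minus strand for SLC25A1, chr7:87876361-87876610 on the minus strand for SLC25A40 and chr11:65382647-65382896 on the minus strand for SLC25A45, the last being 1 of its 2 windows.
SLC25A27: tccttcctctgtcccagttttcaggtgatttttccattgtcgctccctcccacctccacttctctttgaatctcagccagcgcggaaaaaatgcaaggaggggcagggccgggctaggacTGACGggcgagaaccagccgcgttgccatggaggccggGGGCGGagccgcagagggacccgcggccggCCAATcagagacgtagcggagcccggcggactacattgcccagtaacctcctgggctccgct
SLC25A1: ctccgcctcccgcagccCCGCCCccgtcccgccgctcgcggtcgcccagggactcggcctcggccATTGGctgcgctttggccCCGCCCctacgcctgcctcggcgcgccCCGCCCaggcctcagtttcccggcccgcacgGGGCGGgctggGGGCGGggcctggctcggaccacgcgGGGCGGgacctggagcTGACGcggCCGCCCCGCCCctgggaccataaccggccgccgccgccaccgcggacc
SLC25A40: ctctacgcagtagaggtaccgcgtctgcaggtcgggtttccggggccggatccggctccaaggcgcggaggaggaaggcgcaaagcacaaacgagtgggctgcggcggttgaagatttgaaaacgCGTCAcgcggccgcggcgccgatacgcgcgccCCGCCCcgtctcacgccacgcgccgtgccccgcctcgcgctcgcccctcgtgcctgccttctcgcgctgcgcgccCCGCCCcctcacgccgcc
SLC25A45: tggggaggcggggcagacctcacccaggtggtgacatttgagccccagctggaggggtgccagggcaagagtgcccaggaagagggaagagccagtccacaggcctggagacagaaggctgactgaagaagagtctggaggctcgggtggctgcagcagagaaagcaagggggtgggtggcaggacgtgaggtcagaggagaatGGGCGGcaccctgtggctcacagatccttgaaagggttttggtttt
SLC25A1 held 8 GC boxes in this stretch, SLC25A40 2, and SLC25A27 and SLC25A45 1 each. SLC25A1 and SLC25A27 each also held a CCAAT box and a CRE core, and SLC25A40 a CRE core. The other SLC25A45 window, not printed, held a CCAAT box and 0 GC boxes.

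Lists of other genes of mitochondrial transport are set beside the carriers, all against the same background: 59.7% of all measured genes lay below 0, their median was -0.08, and 5.4% were higher and 7.03% lower by 1.5-fold. Of the family members whose symbols do not start with SLC25A, UCP2, an uncoupling protein, had 30.6 TPM in control and 50.5 with metformin, a ratio of 1.65 (1.49 to 1.82). UCP2 passed 1.5-fold on the log2 scale and had a higher ratio than any measured member of the SLC25 set. UCP3 had 1.13 and 0.606 TPM with an interval that included 1. MTCH1 and MTCH2, outer membrane proteins with the carrier fold, were listed at 238 and 93.8 TPM without and at 265 and 97.1 with metformin.

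Among 20 other transporters of the inner membrane 4 lay above 0 and 16 below, with a median of -0.11 and none past 1.5-fold. The lowest was MCUR1, a regulator of the calcium uniporter, at 0.680 of control, and the highest was SFXN3, a sideroflexin, at 38.2 and 47.8 TPM. Of the genes for import of carriers into the inner membrane 8 of 9 lay below 0, with a median of -0.16. TIMM13, a chaperone of the space between the membranes, was the lowest, at 84.2 and 54.7 TPM, a ratio of 0.650 (0.576 to 0.733), and was the only one of these past 1.5-fold. TIMM29, a TIM22 subunit, was the highest at 1.03-fold with an interval that included 1. The channels of the outer membrane lay between VDAC3 at 0.881 of control and VDAC2 at 1.17-fold. Of the enzymes that work with SLC25A11, SLC25A12 and SLC25A13 in the malate-aspartate shuttle, GOT1 in the cytosol had 95.7 and 118 TPM, a ratio of 1.24 (1.17 to 1.30). Its mitochondrial counterpart GOT2 was the lowest, at 148 and 134 TPM, a ratio of 0.907 (0.862 to 0.955).

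The sign of the difference was kept by 33 of the 36 carriers under the 11 other processing settings tried, as the plot of each difference over the settings shows. Other pseudocounts and filters cannot turn a sign, and taking the first row of each ID can alter only SLC25A6. Signs could turn only with FPKM, rescaling of the libraries, removal of the GC and length trend or coverage per aligned base. The widest ranges that stayed below 0 belonged to SLC25A45, from -0.76 to -0.33, and SLC25A40, from -0.63 to -0.32. SLC25A1 stayed between 0.30 and 0.51 and SLC25A3 between 0.23 and 0.34.

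**Figure D4:**
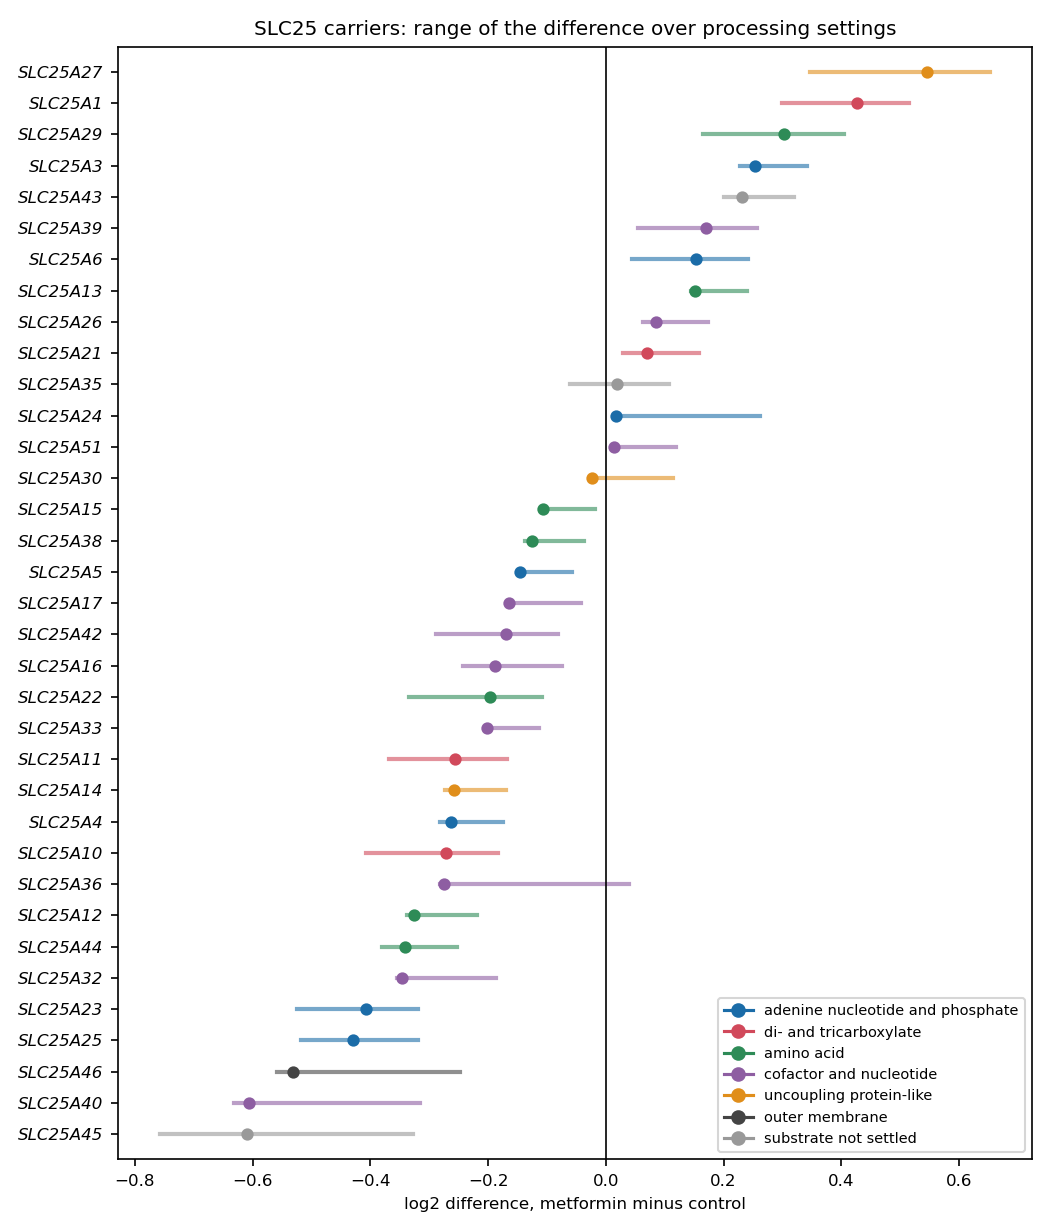
Log2 difference, metformin minus control, of 35 measured SLC25 genes as reported (points) and its range over the main setting and 11 other processing settings (bars). The bars of SLC25A30, SLC25A35 and SLC25A36 cross 0, and those of the other 32 genes drawn do not. Settings with another pseudocount or filter cannot carry a bar across 0.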

How the data were processed

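Per the labels' protocols, H1299 RNA was made into libraries with the TruSeq Stranded mRNA LT kit, sequenced on a NovaSeq system and mapped to hg19 with Bowtie2. Per the submitters' processing notes, Trimmomatic 0.38 and HISAT2 were used. The sources used here do not name the quantification program. TPM and FPKM were computed by the authors, and the deposited coverage is a mean depth of reads per gene.

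Gene IDs were given symbols from RefSeq (27559 of 27685 matched), and rows of 1 ID were summed. The main value is log2(TPM + 1) of metformin less that of control, which understates differences of low genes. Genes at 1 TPM or more in a library were measured. No test was possible with a single library in each group. Depth came from the ratio of coverage to FPKM. A read pair was taken as 202 bases, the most common base total of short rows with few reads, and pairs per gene came from FPKM and a GENCODE 44 transcript of median length. PCR duplicates can make the intervals too narrow.

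The members, lists and motifs were chosen with earlier results of these data known. Named genes were all members, with both values for those past 1.5-fold, the ends of each substrate class and the most abundant, and the ends of each related list. One measured member is counted but not reported here by name or drawn. Overlapping genes, other members and markers were named after their values were seen. The steps were tested on simulated data. Alternatives were other pseudocounts, filters, units, scalings and a GC and length trend. Python 3.11.15 was used.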

Additional observations from a re-analysis of the deposited data

How the results depend on the processing

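The count of carriers past 2-fold was 0 in either direction under all 11 alternatives. By 1.5-fold, 2 carriers were lower as reported. That count was 0 with a pseudocount of 5, with log2(FPKM + 1), with centring on genes at 10 TPM or more and with trimmed mean scaling. It was 1 with a minimum of 5 TPM and without the GC and length trend. It was also 1 without the 10 measured members that overlap another gene at 1 TPM or more. The count higher by 1.5-fold was 0 as reported and 1 with a pseudocount of 0.1, with that centring, with trimmed mean scaling, without the GC and length trend and with coverage per aligned base. The median difference of the carriers stayed below 0 in each setting, between -0.18 and -0.08. The median of all genes was 0.0077 after centring, which sets the median of genes at 10 TPM or more to 0, and -0.08 as reported. The sign of the difference was kept in every setting by 33 of 36 carriers, though settings with another pseudocount or filter could not turn it. SLC25A36 and SLC25A35 turned without the GC and length trend, and SLC25A30 turned there, with FPKM, with centring, with trimmed mean scaling and with coverage. Coverage per aligned base and the omission of overlapping members were chosen after seeing the data. No paired analysis was possible because each group is 1 library. For carriers below 5 TPM, such as SLC25A45 and SLC25A21, counting alone leaves a wide interval.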
